A study of Homo sapiens with 6 samples.

Results

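The interferon response and antigen presentation genes were followed in LN-229, T98G and U251 cells, 3 established lines of human glioblastoma, after transfection of small interfering RNA against the long non-coding RNA HOTAIRM1. The set holds 48 gene symbols of antiviral and class I presentation genes. All 48 were found by symbol among the 59074 genes of the deposited table, and 46 of them had a mean of at least 1 CPM (the reads of a gene scaled to the reads of its library) over the libraries, as did 14294 genes in all. In siHOTAIRM1 cells a siPOOL, a pool of many small interfering RNAs, was directed against HOTAIRM1, and siControl cells received a non-target siPOOL. RNA was taken 72 h later, with 1 library for each line and condition and 6 libraries in all. The first line is written LNT229 in the sample titles. Both conditions thus received transfected double-stranded RNA, no untransfected library was used, and each line stands for 1 tumour kept in culture.

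Cells read foreign double-stranded RNA with cytoplasmic sensors, which lead to the secretion of type I interferon. Interferon then acts through its receptor, the Janus kinases and a factor of STAT and IRF9 subunits that binds the interferon-stimulated response element (ISRE) in front of its target genes. These genes encode the sensors themselves, antiviral effectors, the ubiquitin-like protein ISG15 with its enzymes, and the machinery that cuts peptides, moves them into the endoplasmic reticulum and presents them on HLA class I molecules. IRF1 and NLRC5 drive the class I genes in particular.

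The depth recovered from the steps between low CPM values was 52.3 to 104 M reads per library, so that 3 reads, taken as the floor, corresponded to 0.0289 to 0.0574 CPM. HOTAIRM1 was lower in siHOTAIRM1 in all 3 lines, at 1.99 and 0.952 CPM (siControl and siHOTAIRM1) in LN-229, 3.49 and 2.15 CPM in T98G, and 1.27 and 0.623 CPM in U251, and the limma estimate of its log2(CPM + 1) change was -0.54 (SE 0.123, adjusted p = 0.0146, 3 lines). Of the glial markers, VIM and CD44 were at least 254 CPM in every library, whereas SOX2 and NES were at most 0.96 CPM in T98G and GFAP was at most 0.317 CPM in LN-229 and T98G. S100B had 21.1 and 24.7 CPM in LN-229, 2.53 and 2.06 CPM in U251, and was listed at 0 in T98G. OLIG2 was at most 1.69 CPM and AQP4 at most 0.0341 CPM in any library. The immune cell markers PTPRC, CD3E, CD14, ITGAM, AIF1 and CSF1R were at most 2.12 CPM, and CD3E and AIF1 were at most 0.0114 CPM. On the log2(CPM + 1) scale, the median of all tested genes shifted by 0.01 between the libraries of LN-229, by -0.03 in U251 and by -0.19 in T98G. Changes in T98G are therefore also given relative to this shift for the called genes, the class I genes and the genes flagged below. Other T98G changes of single genes hold the shift.

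The promoters of the set were searched for the ISRE. The symbols were chosen as interferon response genes, which are known to carry it. Its share among them is thus a description and no independent support for the set. RefSeq promoter windows (GRCh38.p14, 250 bases before to 50 bases after the start) were matched for 39 of the 48 genes. An ISRE core, GAAANNGAAA on one strand or TTTCNNTTTC on the other, was present in 26 of the 39 (66.7%), against 1195 of 27305 genes with a window (4.38%). The core was found in 13 of 16 antiviral effectors, 3 of 5 RNA sensors, 4 of 6 genes of the ISG15 and ADP-ribosylation group, 6 of 9 class I presentation genes and 0 of 3 transcription factors. The core of the gamma-activated site, TTCNNNGAA, which reads the same on both strands, was present in 10 of 39 (25.6%) and in 9.38% of all genes. The windows of the called genes DDX58 and UBE2L6 held no ISRE core in these letters.

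The cores of 10 genes on which the results below turn are printed with 15 bases on either side, 5′ to 3′ on the strand of the gene, with each ISRE core in capitals. IFIT1, IFIT3, ISG15 and SAMD9 were lower in U251 after knock-down, IFI6, MX1 and OAS3 were higher there, and TAP1, TAP2 and B2M belong to class I presentation.
IFIT1, chr10:89392492-89392544, plus strand: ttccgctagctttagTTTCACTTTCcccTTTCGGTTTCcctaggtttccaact
IFIT3, chr10:89332463-89332502, plus strand: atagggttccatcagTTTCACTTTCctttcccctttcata
ISG15, chr1:1013369-1013414, plus strand: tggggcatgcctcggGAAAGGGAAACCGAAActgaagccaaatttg
SAMD9, chr7:93118091-93118130, minus strand: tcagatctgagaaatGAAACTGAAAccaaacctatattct
IFI6, chr1:27672261-27672322, minus strand: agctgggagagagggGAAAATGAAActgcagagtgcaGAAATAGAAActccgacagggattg
MX1, chr21:41431839-41431878, plus strand: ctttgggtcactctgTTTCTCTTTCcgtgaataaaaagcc
OAS3, chr12:112938316-112938355, plus strand: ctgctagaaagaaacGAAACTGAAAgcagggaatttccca
TAP1, chr6:32853808-32853853, minus strand: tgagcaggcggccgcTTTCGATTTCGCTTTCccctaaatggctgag
TAP2, chr6:32838773-32838812, minus strand: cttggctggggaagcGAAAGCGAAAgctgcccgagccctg
B2M, chr15:44711358-44711403, plus strand: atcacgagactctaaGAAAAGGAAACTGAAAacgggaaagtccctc
IFIT3 held a second core at chr10:89327860-89327899, in the window of another of its starts, which is not printed. The core nearest the start lay 93 bases before it in IFIT1, 97 in ISG15, 83 in IFI6, 133 in OAS3 and 48 in TAP2. IFIT1 and IFI6 each held 2 separate cores, and in ISG15, TAP1 and B2M 2 cores overlapped. Genes that were lower and genes that were higher in U251 thus both carried the core. Over the 25 tested genes with a core, the median change was -0.13 (LN-229), -0.17 (T98G) and -0.06 (U251), and over the 13 matched and tested genes without one it was -0.08, -0.35 and -0.12.

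The level of the set differed first of all between the cell lines. LN-229 had the lowest mean log2(CPM + 1) of the 3 lines for 41 of the 46 tested genes (89.1%), whereas it was the lowest line for 32.1% of all tested genes. T98G was the highest line for 20 of the 46 and U251 for 24, against 25.6% and 45.6% of all tested genes. Both LN-229 libraries lay under all 4 libraries of the other lines for 38 of the 46, against 21.4% of all tested genes, and the 8 with overlap were OAS3, IRF1, IFI27, ISG20, HERC6, PSMB9, TAP1 and HLA-F. OAS2, OASL, IFIT1, IFI27, IFI44L, MX1, MX2, XAF1 and ISG15 were under 1 CPM in both LN-229 libraries. They passed the filter only through T98G or U251, so their low place in LN-229 was set in part by the filter. This limit also holds for the contrasts with LN-229 and the ranges of line means below. These levels come from bulk RNA, in which fewer cells expressing a gene and less RNA per cell cannot be told apart.

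**Figure D1:**
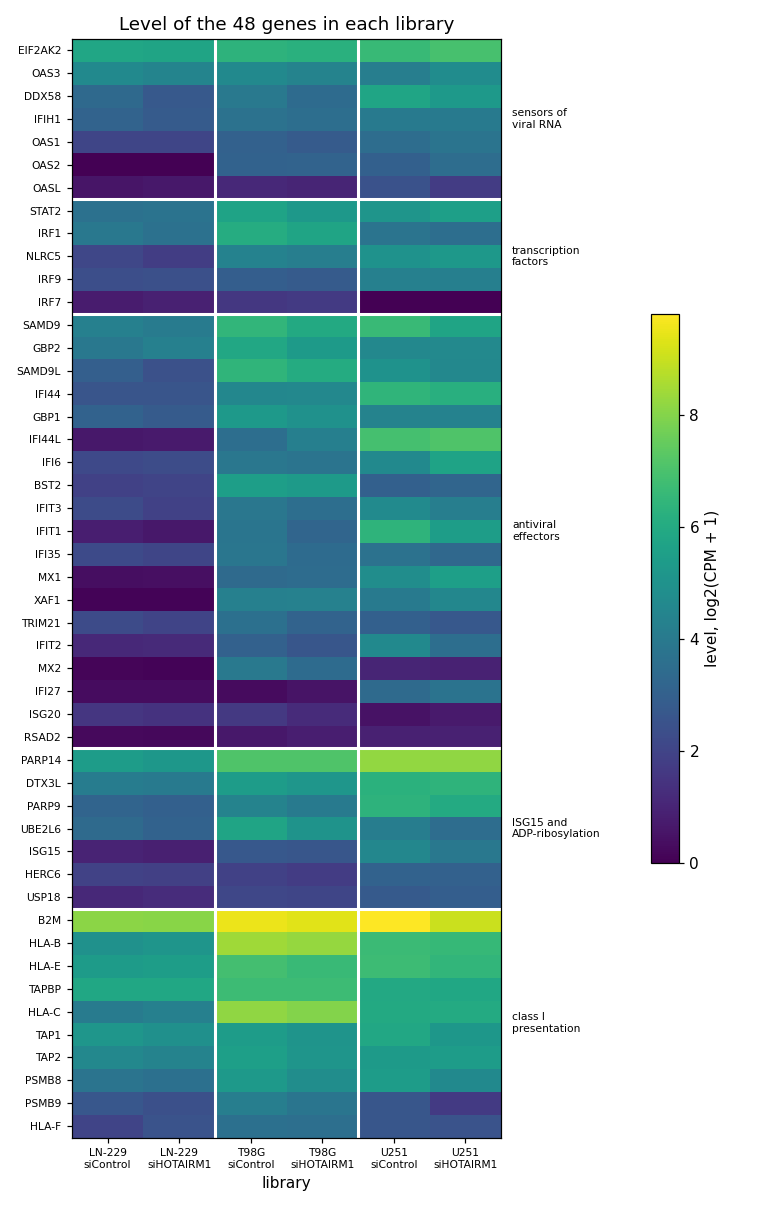
Level of each of the 48 genes (rows, by role and by mean level) in each of the 6 libraries (columns), as log2(CPM + 1) in colour. The LN-229 columns are the darkest for most genes, B2M is the brightest gene in every library, and IRF7 is listed at 0 in U251.

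In the limma F-test of the cell line, with the condition as covariate, 45 of the 46 genes passed the threshold of 0.05 after adjustment over all 14294 genes. The background was high, since 81% of all tested genes passed. The 1 gene that did not pass was OAS3 (adjusted p = 0.919), an oligoadenylate synthetase that activates RNase L, with 24.3 and 20.7 CPM in LN-229, 24.1 and 19.8 CPM in T98G and 17.1 and 26.1 CPM in U251. In the pairwise contrasts, 41 genes were higher and 0 lower in T98G than in LN-229, against 24.1% and 30.8% of all tested genes, while 5 did not pass. Further, 40 genes were higher and 1 (ISG20) lower in U251 than in LN-229, against 36.7% and 23.9%. Between U251 and T98G the set was divided, with 21 genes higher and 14 lower in U251, against 41% and 23.1%. The median difference over the 46 genes was 1.51 for T98G minus LN-229, 1.59 for U251 minus LN-229 and 0.11 for U251 minus T98G on the log2(CPM + 1) scale, and over all tested genes it was -0.08, 0.15 and 0.22. The 2 libraries of a line came from cells transfected with different siPOOLs. The p-values thus set the lines against the spread of the knock-down change between lines and not against independent cultures of a line. For each gene, limma draws that spread toward the trend over all tested genes. Below, lines said not to differ beyond their spread are those whose contrast did not pass the threshold.

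**Figure D2:**
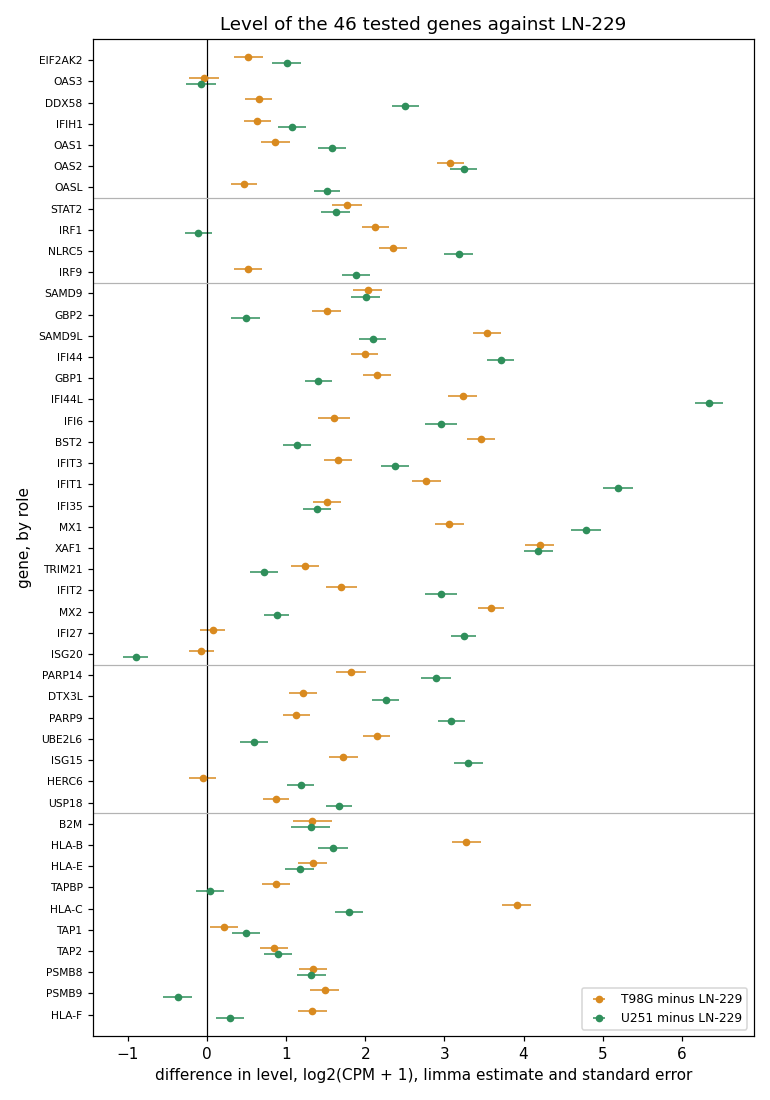
Difference in level of the 46 tested genes (rows, by role) of T98G and U251 from LN-229, as limma estimates on the log2(CPM + 1) scale with standard errors as bars. All but a few points lie to the right of 0, and IFI44L in U251 lies farthest, at 6.34.

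The 10 genes with the largest range of line means were mostly antiviral effectors. IFI44L, a neighbour and paralog of IFI44, had 0.555 and 0.625 CPM (siControl and siHOTAIRM1) in LN-229, 10.8 and 17.8 CPM in T98G, and 119 and 138 CPM in U251. IFIT1, which binds viral RNA with an unmethylated cap, had 0.770 and 0.568 CPM in LN-229, 13.05 and 8.19 CPM in T98G, and 82.6 and 43.4 CPM in U251. MX1, a dynamin-like GTPase that traps viral nucleocapsids, had 0.283 and 0.318 CPM in LN-229, 9.61 and 10.1 CPM in T98G, and 27.2 and 44.7 CPM in U251. For these 3 genes the order was LN-229, T98G, U251 without overlap between lines, and each pairwise contrast passed the threshold, with differences of 3.12, 2.42 and 1.72 between U251 and T98G. IFI44 and ISG15 had the same order, at 71.4 to 83.3 CPM and 14.2 to 22.4 CPM in U251 and at 4.94 to 5.00 CPM and 0.837 to 0.986 CPM in LN-229.

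XAF1, an interferon-induced protein linked to apoptosis, was nearly silent in LN-229, where both libraries held 6 and 7 reads (0.0681 and 0.0674 CPM), and had 18.3 and 19.0 CPM in T98G and 15.2 and 22.3 CPM in U251. The last 2 lines did not differ in XAF1 beyond their spread (difference -0.02, SE 0.180, adjusted p = 0.948). OAS2, named here after its values were seen, held 1 read in each LN-229 library, at or under the floor, and 7.10 to 10.3 CPM in the 4 other libraries. A second pattern placed T98G above U251. MX2, which restricts retroviruses at the nuclear pore, had 14.4 and 9.82 CPM in T98G, 1.03 and 0.919 CPM in U251, and 8 and 6 reads in LN-229. BST2, which tethers budding virus to the cell surface, had 44.3 and 39.1 CPM in T98G, 7.12 and 8.07 CPM in U251 and 2.75 and 3.02 CPM in LN-229. SAMD9L, a suppressor of growth and of poxvirus replication, had 85.4 and 63.9 CPM, 30.7 and 22.9 CPM, and 6.77 and 4.34 CPM in the same order of lines. MX1 and MX2 are neighbours on chromosome 21, and IFIT2, IFIT3 and IFIT1 lie side by side on chromosome 10, so neighbouring genes of a family had different orders of lines in the first case and the same order in the second.

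Both genes under the filter were transcription or effector genes of low level. IRF7, the factor that amplifies interferon production, had 59 and 89 reads in LN-229 and 139 and 159 reads in T98G (2.01 and 2.19 CPM), and was listed at 0 in both U251 libraries. RSAD2, the antiviral enzyme viperin, had 17 and 17 reads in LN-229, 39 and 57 in T98G, and 44 and 90 in U251, or at most 0.889 CPM. Of the other transcription factors, IRF1 was higher in T98G (67.0 and 52.2 CPM) than in LN-229 (14.2 and 11.5 CPM) and U251 (12.8 and 10.8 CPM), and the last 2 lines did not differ beyond their spread (adjusted p = 0.594). NLRC5, the transactivator of class I genes, followed the order LN-229 (3.25 and 2.41 CPM), T98G (19.4 and 17.5 CPM), U251 (31.1 and 36.2 CPM).

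Of the class I presentation genes, TAP1 and TAP2 had the order of NLRC5, although T98G and U251 did not differ in them beyond their spread (adjusted p = 0.164 and 0.831). The other 8 had their highest mean log2(CPM + 1) in T98G. By mean CPM, B2M and PSMB8 were slightly higher in U251 (704 and 32.9 CPM) than in T98G (689 and 32.6 CPM). HLA-B and HLA-C, 2 of the classical class I heavy chains, were highest in T98G, at 334 and 301 CPM and at 287 and 255 CPM, intermediate in U251, at 102 and 94.1 CPM and at 60.8 and 62.2 CPM, and lowest in LN-229, at 30.4 and 33.4 CPM and at 16.1 and 18.1 CPM. The difference between T98G and LN-229 was 3.27 (SE 0.185) for HLA-B and 3.91 (SE 0.179) for HLA-C. B2M, the light chain that all class I molecules share, had 275 and 270 CPM in LN-229, 727 and 650 CPM in T98G, and 894 and 514 CPM in U251. HLA-E, a ligand of inhibitory receptors of natural killer cells, had 40.4 and 43.5 CPM, 118 and 98.1 CPM, and 105 and 86.9 CPM in the same order, and T98G and U251 did not differ beyond their spread in B2M or HLA-E (adjusted p = 0.949 and 0.429).

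Per kb of transcript, B2M was above the heavy chains in every library, with 286 to 948 CPM per kb against 19.8 to 217 CPM per kb for HLA-B and 10.4 to 186 CPM per kb for HLA-C. HLA-F was the lowest class I heavy chain in the set, at 2.08 to 7.54 CPM per kb. Of the peptide transporter, TAP1 had 10.99 to 21.5 CPM per kb and TAP2 3.55 to 8.04 CPM per kb, with TAP1 higher in each library. TAPBP, the tapasin that holds empty class I molecules at the transporter, had 30.03 and 30.2 CPM per kb in T98G and 16.3 to 17.1 CPM per kb in the other lines. Of the interferon-inducible proteasome subunits, PSMB8 had 10.1 to 37.2 CPM per kb and PSMB9 2.17 to 17.2 CPM per kb, and the 2 were divided in U251, where PSMB8 was near its T98G level (37.2 and 21.2 against 33.9 and 24.1 CPM per kb) and PSMB9 was near its LN-229 level (5.10 and 2.17 against 5.22 and 4.16 CPM per kb). HLA genes share sequence, and the exons of PSMB8 and PSMB9 overlap on opposite strands in a library kit that does not mark strand, so the split of reads between them is uncertain.

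**Figure D3:**
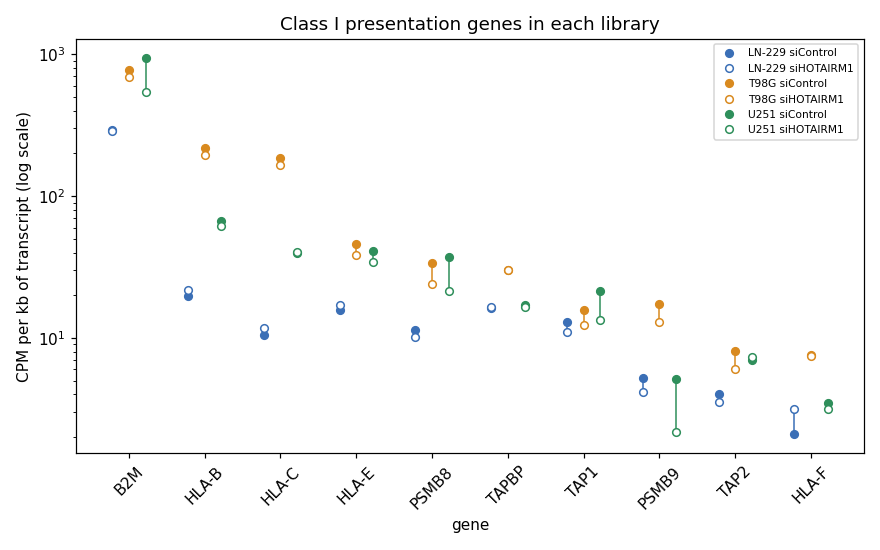
CPM per kb of transcript (log scale) of the 10 class I presentation genes in each library, with filled points for siControl, open points for siHOTAIRM1 and a line joining the libraries of a cell line. B2M, PSMB8, TAP1 and PSMB9 of U251 have the longest lines, and the HLA-B and HLA-C points of T98G lie above those of the other lines.

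The second comparison asked which of these genes changed when HOTAIRM1 was knocked down, with the 3 lines as replicates. Of the 46 genes, 3 (6.52%) passed the threshold in limma, with cell line as a blocking term, and all 3 were lower in siHOTAIRM1, against 1.59% of all tested genes. No gene of the set was called higher, against 0.413% of all tested genes. UBE2L6, the E2 enzyme that conjugates ISG15, lies on chromosome 11 of hg38 from 57551656 to 57568284 (minus strand) and had 9.48 and 7.45 CPM in LN-229, 51.4 and 32.0 CPM in T98G, and 17.0 and 10.2 CPM in U251. Its log2(CPM + 1) change was -0.31, -0.67 and -0.68 in the 3 lines, and the estimate was -0.55 (SE 0.143, adjusted p = 0.0348). IFIT1, on chromosome 10 from 89392546 to 89406487 (plus strand), changed by -0.18, -0.61 and -0.91 in LN-229, T98G and U251, and the estimate was -0.57 (SE 0.151, adjusted p = 0.0423). DDX58, which encodes the RNA sensor RIG-I and lies on chromosome 9 from 32455302 to 32526208 (minus strand), had 9.09 and 5.71 CPM in LN-229, 14.5 and 9.82 CPM in T98G, and 53.9 and 38.8 CPM in U251, with an estimate of -0.52 (SE 0.141, adjusted p = 0.0428).

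Each of these genes was lower in siHOTAIRM1 in all 3 lines, also after subtraction of the all-gene median, when the T98G value was -0.48 for UBE2L6, -0.42 for IFIT1 and -0.33 for DDX58. In LN-229, however, IFIT1 held only 68 and 59 reads (siControl and siHOTAIRM1). The counting interval of its log2 ratio there was -0.97 to 0.08 and included 0, so its direction in LN-229 is open. Those of UBE2L6 and DDX58 in LN-229 lay below 0, at -0.49 to -0.21 and -0.82 to -0.51. The calls depended on the model. None of the 3 passed without the block, in a per-gene paired t-statistic, with the libraries rescaled or centred, without the filter, or without T98G or U251, and without LN-229 IFIT1 and SAMD9 passed. Their adjusted p-values over the 10 alternatives were as low as 0.00529 for DDX58, 0.00229 for IFIT1 and 0.0110 for UBE2L6 and as high as 0.999998 for each, and their changes were below 0 in each alternative. Leaving out the block or the filter, or using the paired t-statistic, leaves the estimate itself unchanged, so those alternatives could not turn its sign.

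The 10 genes with the largest mean change were all lower in siHOTAIRM1 on average and held, besides these 3, the genes PSMB9, SAMD9, IFIT2, PSMB8, SAMD9L, TAP1 and IFIT3, none of which passed the threshold. PSMB9 had an estimate of -0.54 (adjusted p = 0.0513), SAMD9 of -0.53 (adjusted p = 0.0580), SAMD9L of -0.45 and PSMB8 of -0.47 (both adjusted p = 0.0764). IFIT2, a further member of the IFIT family, had 1.17 and 1.25 CPM in LN-229, 7.34 and 5.14 CPM in T98G, and 24.0 and 10.7 CPM in U251, with an adjusted p of 0.0947. Its LN-229 libraries were thus about level, and the difference was greatest in U251. IFIT3, the partner of IFIT1, had 3.72 and 2.71 CPM, 14.0 and 10.6 CPM, and 25.01 and 17.1 CPM in the 3 lines, and TAP1 had 34.6 and 29.5 CPM, 42.1 and 32.9 CPM, and 57.6 and 35.8 CPM (both adjusted p = 0.113). At an unadjusted p under 0.05 there were 15 genes of the set, 13 lower and 2 higher, against 18.3% of all tested genes.

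Over the 46 genes the median of the limma estimates was -0.10, and over all tested genes it was -0.07. Of the set, 18 genes were lower in all 3 lines and 3 (IFI27, IFI44L and MX1) were higher in all 3, against 28.1% and 11.4% of all tested genes. In LN-229 these 3 held only 22 and 27, 49 and 65, and 25 and 33 reads (siControl and siHOTAIRM1), with counting intervals that include 0. MX2 and IFIT1 were among those of the 18 with such intervals there, at 8 and 6 and at 68 and 59 reads. After centring of each library on its median the counts were 14 and 5, against 22.4% and 22.1% of all tested genes. IFI44L was among the 5, and IFI27 and MX1 were not, at -0.026 and -0.00027 in LN-229. None of IFI27, IFI44L and MX1 passed the threshold, with estimates of 0.19, 0.32 and 0.27.

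**Figure D4:**
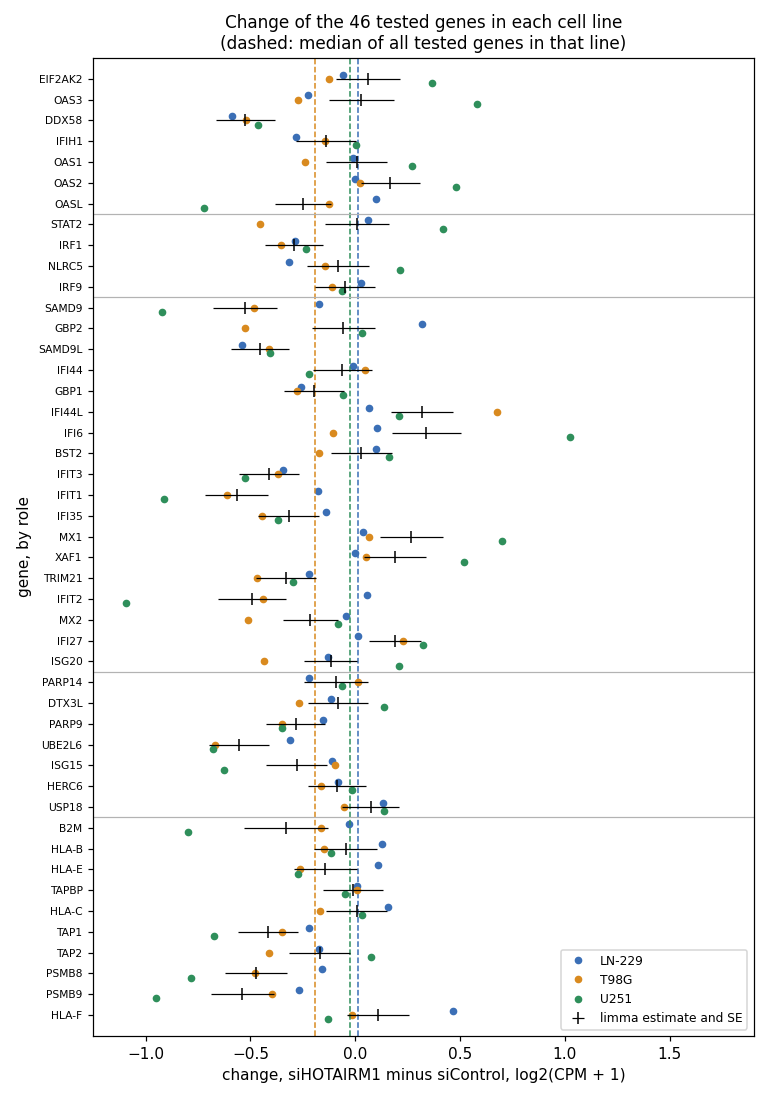
Change of the 46 tested genes (rows, by role), siHOTAIRM1 minus siControl, on the log2(CPM + 1) scale in each cell line (points), with the limma estimate and its standard error (black) and the median of all tested genes in each line (dashed). The U251 points spread most widely, from -1.09 for IFIT2 to 1.02 for IFI6, and those of DDX58 and SAMD9L lie close together below 0.

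Within a line there was 1 library per condition and no test. In LN-229 the 46 changes ranged from -0.59 to 0.47 with a median of -0.07, 30 of them (65.2%) below 0, against 46.3% of all tested genes. In T98G they ranged from -0.67 to 0.68 with a median of -0.25, 38 of them (82.6%) below 0, while 79.3% of all tested genes were below 0 in this line. In U251 they ranged from -1.09 to 1.02 with a median of -0.06, 27 of them (58.7%) below 0, against 53.2% of all tested genes. The median in U251 was 0.20 when the listed genes of each library were rescaled to the full CPM scale and 0.01 after centring, so its direction rested on the scale.

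With a difference of at least 1.5-fold in CPM + 1 as the rule, a size chosen after the values were seen, 1 gene of the set (DDX58) was lower and 0 were higher in LN-229, against 0.602% and 0.847% of all tested genes. In T98G, 2 (UBE2L6 and IFIT1) were lower and 1 (IFI44L) was higher, against 4.22% and 0.392%. In U251, 10 of 46 (21.7%) were lower against 8.51% of all tested genes, and 2 of 46 (4.35%) were higher against 4.41%. The 10 genes were IFIT1, IFIT2, SAMD9, OASL, ISG15, UBE2L6, PSMB8, PSMB9, TAP1 and B2M, and the 2 genes were IFI6 and MX1. These U251 counts rested on the scale. After rescaling, only IFIT1, IFIT2, SAMD9 and PSMB9 stayed past the rule as lower. OAS3, XAF1, OAS2, STAT2, EIF2AK2 and IFI27 then joined IFI6 and MX1 as higher. After centring, ISG15 fell short and OAS3 and XAF1 were also higher. The shares of all genes on these scales were not counted.

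In U251, genes of the set thus differed in both directions. IFI6, an interferon-induced protein that delays apoptosis, had 24.4 and 50.6 CPM in U251, a log2 ratio of 1.05 with a 95% counting interval of 0.96 to 1.14. In LN-229 it had 3.49 and 3.82 CPM and in T98G 13.7 and 12.6 CPM, intervals that include 0. MX1 in U251 had a log2 ratio of 0.72 (0.63 to 0.81), XAF1 of 0.55 (0.43 to 0.67) and OAS2 of 0.54 (0.37 to 0.71), while SAMD9 had a ratio of -0.93 (-0.99 to -0.88), IFIT1 of -0.93 (-0.99 to -0.87) and IFIT2 of -1.16 (-1.28 to -1.05). B2M was 894 and 514 CPM in U251, a log2 ratio of -0.80 (-0.82 to -0.78), and 275 and 270 CPM in LN-229. These exact intervals cover counting error of the recovered reads and not the spread between cultures. The siControl library of U251 was the shallowest, at 52.3 M reads, and its siHOTAIRM1 library held 101 M reads, and the listed genes summed to 67.2% and 55.9% of the CPM scale in the 2 libraries. The part of this in the changes was not tested. Longer transcripts also had higher changes in U251, with a Spearman correlation across genes of 0.31 over 13179 genes and of 0.19 over the 46. In T98G the correlations were 0.23 and -0.09, and in LN-229 they were -0.03 and -0.31. They describe genes that share libraries. With the trend of each line removed, an alternative added after the data were seen, 7 genes of the set were called lower and 1 (IFI6) higher, against 3.85% and 1.05% of the 13179 genes.

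Opposite differences in 2 lines, with counting intervals of both without 0 and the same signs after rescaling and centring, were seen for 8 of the 46 genes (17.4%) and for 17.2% of all tested genes.

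By role, the 7 RNA sensors had median changes of -0.06 (LN-229), -0.14 (T98G) and 0.27 (U251), and -0.10, 0.05 and 0.35 after centring. The T98G median of the sensors thus turned with the scale. Over all tested genes the medians were 0.01, -0.19 and -0.03, and -0.03, 0.0063 and 0.05 after centring. A turn is a change of sign here, and the all-gene medians turned too. In U251, 5 of the 7 were not lower, with OAS3, OAS2, EIF2AK2 and OAS1 at 0.58, 0.48, 0.37 and 0.27, and DDX58 and OASL were lower, at -0.47 and -0.72. The 4 tested transcription factors had medians of -0.13, -0.25 and 0.08, and of -0.17, -0.05 and 0.15 after centring. Among them IRF1 was lower in each line, by -0.29, -0.35 and -0.24, and STAT2, the subunit that pairs with IRF9, had -0.46 in T98G and 0.42 in U251. The 18 tested antiviral effectors had medians of -0.03, -0.39 and -0.07, which were -0.07, -0.19 and 0.0068 after centring, so the U251 median turned. The 7 genes of the ISG15 and ADP-ribosylation group had medians of -0.11, -0.16 and -0.07, which were -0.15, 0.03 and 0.01 after centring, so those of T98G and U251 turned. In that group UBE2L6 and ISG15 had the lowest changes in U251, at -0.68 and -0.63, and USP18, the protease that removes ISG15, was at 0.14.

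The 10 class I presentation genes had medians of -0.01 (LN-229), -0.21 (T98G) and -0.20 (U251), and the last 2 were -0.02 and -0.12 after centring and 0.01 and 0.04 after rescaling. Over all tested genes the last 2 were 0.0063 and 0.05 after centring and -0.0022 and 0.18 after rescaling. PSMB8, PSMB9 and TAP1, neighbours on chromosome 6, were lower in each line, at -0.78, -0.95 and -0.67 in U251, at -0.48, -0.39 and -0.35 in T98G and at -0.16, -0.27 and -0.22 in LN-229. TAP2, in the same neighbourhood, was at -0.17, -0.41 and 0.07 in LN-229, T98G and U251. Of the heavy chains, HLA-B was at 0.13, -0.15 and -0.12, HLA-C at 0.16, -0.17 and 0.03, HLA-E at 0.11, -0.26 and -0.27, and HLA-F at 0.47, -0.02 and -0.13 in LN-229, T98G and U251. TAPBP was at 0.01, 0.01 and -0.05, and NLRC5 was at -0.32, -0.14 and 0.21. Relative to the all-gene median of T98G, HLA-B, HLA-C, HLA-E and HLA-F were at 0.04, 0.02, -0.07 and 0.17 in that line. On the same footing TAPBP, NLRC5 and B2M were at 0.20, 0.05 and 0.03. PSMB8, PSMB9, TAP1 and TAP2 were at -0.29, -0.20, -0.16 and -0.22. No gene of this group passed the threshold, and the limma estimates ran from -0.54 for PSMB9 to 0.11 for HLA-F.

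Of 93 other genes of the pathway, 70 passed the filter, 1 (1.43%) was called lower and 0 higher, against 1.59% and 0.413% of all tested genes. The called gene was PSMB10, the third inducible proteasome subunit, which had 3.01 and 2.70 CPM in LN-229, 17.9 and 11.6 CPM in T98G, and 24.1 and 10.8 CPM in U251, with an estimate of -0.60 (SE 0.158, adjusted p = 0.0392). This call was lost without the block, in the per-gene paired t-statistic, without the filter, after rescaling or centring, and without T98G or U251, with adjusted p-values of 0.00987 to 0.999998 over the 10 alternatives. All 3 inducible subunits were thus lower in siHOTAIRM1 in each line, as were 28.1% of all tested genes. Of the 3 only PSMB10 passed, and it was named because it was called. Of the 9 tested receptors and kinases, 0 were called, as were 0 of 10 sensors and adaptors and 0 of 26 further interferon-induced genes. Between lines, 40 of the 70 (57.1%) were higher and 11 (15.7%) lower in T98G than in LN-229, against 24.1% and 30.8% of all tested genes. In U251, 35 (50%) were higher and 16 (22.9%) lower than in LN-229, against 36.7% and 23.9%.

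Of the 12 interferon ligands, only IFNE passed the filter, at 0.78 to 1.93 CPM. IFNB1, the first type I interferon made after RNA sensing, was found almost only in U251, with 25 reads (0.478 CPM) in siControl and 7 reads in siHOTAIRM1, a log2 ratio of -2.79 with a counting interval of -4.24 to -1.54. It held 1 read in each T98G library and was listed at 0 in LN-229. Each of the other 10 ligands held at most 2 reads in any library. The ligand cluster on chromosome 9 lies beside MTAP, CDKN2A and CDKN2B, a region often deleted in glioma. MTAP had 16.7 to 107 CPM in all libraries, CDKN2A was at most 0.179 CPM, and CDKN2B had 8.04 and 4.28 CPM in T98G and was listed at 0 in LN-229 and U251. The number of gene copies was not measured.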

How the data were processed

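The authors used 500 ng of total RNA and the TruSeq RNA Sample Preparation v2 kit, which does not mark strand, and sequenced 101 cycles. Reads were shortened in Partek Flow by 13 bases at their start and 1 at their end, placed on hg38 by STAR 2.4.1d with a second pass of unaligned reads in Bowtie 2, and assigned to genes of Ensembl release 84 by expectation maximization. The deposited values are CPM with 0.0001 added, and the listed genes summed to 42.9 to 67.2% of the full CPM scale per library. The column names gave line and condition, and the lines served as replicate numbers.

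The worth of 1 read was taken from the steps of low values, and 76.7 to 80.4% of values were whole reads within 0.05, so no count test was used. The change is log2(CPM + 1) of siHOTAIRM1 less that of siControl. The 14294 genes whose mean reached 1 CPM were tested with limma 3.58.1 (R 4.3.3, trend) with the cell line as block. Tests between lines had the condition as covariate. Benjamini-Hochberg adjustment was made over these genes, with a threshold of 0.05. The p-values of both fits measure against the spread of the knock-down change between the 3 lines. For each gene, limma draws this spread toward the trend over all tested genes. The standard error of a gene is thus not its own spread alone. It was 0.141 for DDX58, with changes of -0.59, -0.52 and -0.47 in LN-229, T98G and U251. For IFIT2 it was 0.162, with changes of 0.05, -0.44 and -1.09. Same-line libraries deviated together (correlations of 0.948 to 0.967), which is the basis of the block. Intervals are 95% exact intervals of recovered reads. The fits were tested on simulated data.

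Gene lengths and positions are from GENCODE release 44 on hg38, a later annotation than that of the authors, and promoter windows from RefSeq. The exons of 22 of the 48 genes overlap those of another gene. Reads shared by paralogs (HLA, IFIT, OAS, GBP and MX genes) could be split between them in the authors' quantification. The members, role groups and pathway lists were chosen with earlier results of these data known. Named were the called genes, the 10 with the largest mean change, the 10 with the largest range of line means, class I presentation genes with NLRC5, genes under the filter, called pathway genes, the ligands and their neighbours, and HOTAIRM1, and any other gene was named after its values were seen. Alternatives were another pseudocount, filter, scale or model, libraries left out, and removal of the trend with transcript length. Python 3.11.15 with pandas 2.3.3 and scipy 1.17.1 was used for the other steps. Some genes of the pathway were counted in the lists and are not reported by name here.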

Additional observations from a re-analysis of the deposited data

Results flagged for a closer look

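Several genes differed in direction between lines. The difference between the changes of 2 lines was not tested, since each line had 1 library per condition. Values are changes in log2(CPM + 1), siHOTAIRM1 minus siControl, and each gene had counting intervals without 0 in both lines. The median change of all tested genes in T98G was -0.19. Relative to it, STAT2, OAS3, GBP2, OAS1 and DTX3L were at -0.27, -0.08, -0.33, -0.05 and -0.08 in that line. STAT2 was at 0.42 in U251 and -0.46 in T98G, a difference of 0.87. OAS3 was at 0.58 in U251 and -0.27 in T98G, a difference of 0.85. GBP2, a guanylate-binding GTPase, was at 0.32 in LN-229 and -0.52 in T98G, a difference of 0.84. NLRC5 was at 0.21 in U251 and -0.32 in LN-229, a difference of 0.53. OAS1 was at 0.27 in U251 and -0.24 in T98G, a difference of 0.51. EIF2AK2, the kinase PKR that halts translation, was at 0.37 in U251 and -0.06 in LN-229, a difference of 0.42. DTX3L, a ubiquitin ligase that pairs with PARP9, was at 0.14 in U251 and -0.27 in T98G, a difference of 0.41. HLA-E was at 0.11 in LN-229 against -0.27 in U251, which differ by 0.38. The median of the RNA sensors differed by 0.33 between U251 and LN-229, and that of the transcription factors by 0.32 between U251 and T98G. The share of such genes in the set, 8 of 46 (17.4%), lay near that of all tested genes (17.2%), and GBP2, DTX3L, STAT2, EIF2AK2 and OAS1 were named after their values were seen.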

How the results depend on the processing

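The counts called after knock-down depended on the processing. All genes called higher and lower (59 and 227) were 149 and 534 with a pseudocount of 0.1, 10 and 15 with libraries rescaled to a full CPM sum, 15 and 26 after median centring, and 139 and 507 with the length trend removed. The calls in the set (3 lower, 0 higher) became 7 lower with a pseudocount of 0.1, 0 with rescaling or centring, and 7 lower and 1 higher with the length trend removed. Without the filter and with a per-gene paired t-statistic, limma's calls became 0 in all, with 2520 and 896 genes at an unadjusted p under 0.05. With no replicate block, 0 genes were called lower and 0 higher, in the set as in all genes, and 29 had an unadjusted p under 0.05. Leaving out 1 line gave 0 to 40 genes higher and 0 to 239 lower, and 0 to 2 of the set lower. The counts of 0 came without T98G, with 1206 genes at an unadjusted p under 0.05, and for the set also without U251. The share of calls that were higher was 20.6%, and 40% and 36.6% after rescaling and centring.

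Genes of the set called by the line F-test numbered 44 to 46 in all 11 alternatives. Those lower in U251 than in LN-229 (1) were 2 with a pseudocount of 0.1, without the filter and after centring, 3 after rescaling, and 1 to 2 with a library left out. The median change of the set moved to -0.041 (rescaled) and -0.056 (centred) in T98G and to 0.20 (rescaled) in U251. Over all tested genes these medians were -0.0022 and 0.0063 in T98G and 0.18 in U251.

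Of 26 named genes under 10 alternatives, 18 of 260 values changed sign, none of a called gene. The 260 include values that could not change sign. Without the block, without the filter and in the paired t-statistic the estimate equals that of the main fit. The values that changed sign after rescaling were those of IFI44 (0.085), TAPBP (0.14), HLA-B (0.10), HLA-E (0.0057) and NLRC5 (0.049). After centring they were those of IFI44 (0.016), TAPBP (0.068) and HLA-B (0.032). HLA-B was at 0.0055 with the length trend removed. With 1 line left out, the estimate ranged from -0.068 to 0.093 for HLA-C, from -0.12 to 0.016 for IFI44, from -0.037 to 0.13 for BST2, from -0.021 to 0.0088 for TAPBP, from -0.13 to 0.0051 for HLA-B, from -0.072 to 0.23 for HLA-F and from -0.23 to 0.036 for NLRC5. The causes were not tested. Genes near the floor, such as OAS2 and XAF1 in LN-229, give no usable change in that line.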

Other observations

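Class II presentation stood apart from the other genes described here, by values that were looked at after the fact. LN-229, the line with the lowest level of most class I and antiviral genes, had 165.7 and 277 CPM (siControl and siHOTAIRM1) of HLA-DRA, 120 and 168 CPM of HLA-DRB1 and 261 and 365 CPM of CD74, the invariant chain of class II molecules. In T98G these 3 genes were at most 1.51 CPM and in U251 at most 0.0767 CPM. CIITA, the transactivator of class II genes, had 16.2 and 26.4 CPM in LN-229 and 7.47 and 5.46 CPM in T98G, and was at the floor or listed at 0 in U251. None of the 4 genes was called in the knock-down test (limma estimates of 0.09 to 0.20). These estimates average LN-229 with 2 lines in which HLA-DRA, HLA-DRB1 and CD74 were low or near 0. In LN-229 each of the 4 genes was higher in siHOTAIRM1, with 1 library per condition and no test. The immune cell markers PTPRC, CD3E, CD14, ITGAM, AIF1 and CSF1R were at most 0.0681 CPM in LN-229.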
